A study of Homo sapiens with 8 samples.

Results

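A set of 8 genes from 2 families on human chromosome 19 was followed across all 4 hydrogels of a 3D culture experiment. They were 5 CEACAM genes (CEACAM1, CEACAM5, CEACAM6, CEACAM7 and CEACAM19) and 3 IGFL genes (IGFL1, IGFL2 and IGFL3), listed by name, out of 25369 gene symbols in the table. The genes were chosen by name with their high values in stiff IPNs already known, so the comparisons of stiff IPN with soft IPN and of stiff col with stiff IPN are given for these genes as a description, with no p-value. The cells were MCF10A, a spontaneously immortalized, nontransformed human mammary epithelial cell line, at passage 8 to 15, and all had been encapsulated in a hydrogel for 7 days. Soft IPNs and stiff IPNs were interpenetrating networks of alginate and reconstituted basement membrane (rBM), with calcium crosslinks of the alginate setting the stiffness. Soft col:rBM gels held type 1 collagen (col-1) with rBM, and stiff col gels held col-1, with no rBM named in their label. The methods state an rBM concentration for all experiments, so its absence from stiff col gels is not certain. Stiff col and stiff IPN thus differed in col-1, alginate, calcium and possibly rBM together, and these cannot be told apart in that comparison. Calcium and stiffness likewise changed together between soft and stiff IPNs. Stiff col and soft col:rBM gels possibly differed in rBM as well as in stiffness. Each gel was represented by 2 RNA-seq libraries, which the study describes as biological replicates from independent trials. All were of 1 cell line, so the spread between them is that of repeated cultures.

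CEACAM proteins belong to the immunoglobulin superfamily and mediate adhesion between cells at the surface of epithelia and leukocytes. CEACAM1 spans the membrane and can carry inhibitory motifs in its cytoplasmic tail, while CEACAM5, CEACAM6 and CEACAM7 are held at the surface by a glycosylphosphatidylinositol (GPI) anchor. IGFL proteins are small secreted proteins with a cysteine pattern resembling that of the insulin growth factors, and IGFL1 is known to bind the receptor IGFLR1 and to be induced in inflamed skin.

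In these cultures CEACAM6 and IGFL1 were at a normalized count of 30 or more in both stiff IPN libraries and at 8 or less in every library of the other 3 gels. IGFL2 was also highest in both stiff IPN libraries, but it was present in all 8 libraries. CEACAM1 and CEACAM19 were present in every gel. CEACAM5 and IGFL3 stayed near the limit of detection in most libraries, and CEACAM7 was listed at 0 in every library. A normalized count is the read count of a gene divided by 1 factor for its library, and 3 reads, taken as the limit of detection, were worth 2.41 to 3.72 normalized counts depending on the library.

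The promoters of CEACAM6 and of its nearest relatives in position are printed first, because the 3 resemble each other in sequence but CEACAM6 alone was clearly above the limit of detection. Each sequence runs 5′ to 3′ on the strand of the gene, from 250 bases before to 50 bases after the RefSeq transcript start, in lower case. Capitals mark matches to 1 of 5 short motifs searched on both strands. The motif of a TATA box was taken as TATAAA. For the AP-1 transcription factors it was TGANTCA and for STAT factors TTCNNNGAA. For TEAD factors, which act with the coactivator YAP, it was GGAATG. The GC box, a site of SP1, was written as GGGCGG. The sequences come from RefSeq (GRCh38.p14), and each matched hg19, the build to which the reads were aligned, exactly once. In hg19 the windows lie at chr19:42259188-42259487 on the plus strand (CEACAM6), chr19:42212295-42212594 on the plus strand (CEACAM5) and chr19:42192150-42192449 on the minus strand (CEACAM7).
CEACAM6: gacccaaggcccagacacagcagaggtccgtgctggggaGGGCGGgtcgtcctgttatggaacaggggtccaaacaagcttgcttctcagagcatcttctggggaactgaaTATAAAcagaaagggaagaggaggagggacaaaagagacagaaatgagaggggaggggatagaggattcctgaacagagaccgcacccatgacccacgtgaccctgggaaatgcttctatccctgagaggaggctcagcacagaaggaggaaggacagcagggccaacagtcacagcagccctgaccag
CEACAM5: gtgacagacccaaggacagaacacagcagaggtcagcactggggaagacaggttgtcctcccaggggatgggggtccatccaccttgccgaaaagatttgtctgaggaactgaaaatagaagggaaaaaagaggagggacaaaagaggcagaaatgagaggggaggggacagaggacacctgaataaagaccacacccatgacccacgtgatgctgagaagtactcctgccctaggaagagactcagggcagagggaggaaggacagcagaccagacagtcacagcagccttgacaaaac
CEACAM7: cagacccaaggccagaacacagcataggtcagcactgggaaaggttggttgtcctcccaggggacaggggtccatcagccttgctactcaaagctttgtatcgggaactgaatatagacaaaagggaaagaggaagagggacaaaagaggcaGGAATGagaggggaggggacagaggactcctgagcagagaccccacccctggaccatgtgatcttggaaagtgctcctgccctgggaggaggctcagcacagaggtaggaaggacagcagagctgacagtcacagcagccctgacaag

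CEACAM5 and CEACAM7 were identical at 84.7% of 294 aligned bases, CEACAM6 and CEACAM7 at 81.5% of 298, and CEACAM5 and CEACAM6 at 78.8% of 292. CEACAM1, which lies farther along the chromosome, was 72.0% to 77.1% identical to these 3. The CEACAM6 window held a TATAAA match at position -139 and a GGGCGG match at position -211, counted from the first base of the motif to the transcript start. Neither the CEACAM5 window nor the CEACAM7 window held these 2 motifs, and the CEACAM7 window held a GGAATG match at position -98. Among 35116 RefSeq promoters of the same length, 11.5% held TATAAA, 45.0% held GGGCGG and 14.0% held GGAATG, so these letters are common. A match is a description of the sequence and was not tested as a site. The GENCODE models of CEACAM1, CEACAM6 and CEACAM7 begin well before the RefSeq start, so each of these windows lies inside its annotated gene. The CEACAM6 window also lies inside ENSG00000267881, a gene model that overlaps most of CEACAM5 and the first part of CEACAM6.

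The 3 IGFL promoters are printed because IGFL1 and its neighbors IGFL2 and IGFL3, which lie within 111.2 kb, all had their highest value in a stiff IPN library while IGFL2 was the only one detected in all libraries. Their windows in hg19 are chr19:46732749-46733048 on the plus strand (IGFL1), chr19:46651245-46651544 on the plus strand (IGFL2) and chr19:46627896-46628195 on the minus strand (IGFL3).
IGFL1: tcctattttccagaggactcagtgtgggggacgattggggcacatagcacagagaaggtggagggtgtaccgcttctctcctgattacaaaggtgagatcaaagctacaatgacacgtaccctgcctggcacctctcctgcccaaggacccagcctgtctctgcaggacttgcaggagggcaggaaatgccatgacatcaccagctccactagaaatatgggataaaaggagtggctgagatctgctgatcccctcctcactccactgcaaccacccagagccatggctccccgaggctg
IGFL2: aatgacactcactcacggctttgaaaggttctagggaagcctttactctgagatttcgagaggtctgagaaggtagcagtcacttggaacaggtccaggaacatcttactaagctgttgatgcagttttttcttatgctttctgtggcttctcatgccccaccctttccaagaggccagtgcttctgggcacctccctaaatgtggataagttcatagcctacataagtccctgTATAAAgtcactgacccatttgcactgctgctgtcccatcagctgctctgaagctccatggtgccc
IGFL3: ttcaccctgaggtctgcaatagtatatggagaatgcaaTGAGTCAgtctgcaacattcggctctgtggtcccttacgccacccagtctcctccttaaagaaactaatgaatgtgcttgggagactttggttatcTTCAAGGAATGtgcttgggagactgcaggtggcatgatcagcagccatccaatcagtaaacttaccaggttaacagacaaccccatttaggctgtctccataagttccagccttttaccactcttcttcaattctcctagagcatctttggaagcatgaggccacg

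Unlike the CEACAM promoters, these 3 were aligned with each other over no more than 15 bases by the same global alignment with free ends. A local alignment was not run, so longer matches within the windows were not searched. IGFL1 held none of the 5 motifs. IGFL2 held TATAAA at position -16, and its window lies inside the annotated gene, since the GENCODE model begins before the RefSeq start. The IGFL3 window held TGANTCA at position -212, TTCNNNGAA at position -116 and GGAATG at position -111, and the last pair overlap. TGANTCA was found in 7.71% and TTCNNNGAA in 7.66% of all promoters. The share of G and C bases was 46.7% to 56.0% over the 7 members with a promoter entry, below the median of 58.7% over all promoters. CEACAM19 had no entry in the promoter table.

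The reads counted per library came to 13065615 to 18583116, as estimated from the factors, which were themselves inferred from the spacing of the values. The study states a greater depth, and the difference was not resolved. Whether read pairs were counted as 1 is not known, and the limit of 3 reads and every fold given as "at least" rest on these factors. Of the 8 libraries, stiff IPN replicate 2 stood farthest from the others, with a median absolute deviation from the gene medians of 0.301 on the log2 scale against 0.149 to 0.225, and results that rest on it are given with and without it. Basal epithelial markers were present throughout, including KRT5 at 7417 to 44022 and TP63 at 622 to 1865 normalized counts, and CDKN2A, which is deleted in MCF10A, was at 0 in all libraries. PGR did not exceed 1 and ESR1 was at 2 to 15. With the trial as a block in limma, 3 of the 9 basal markers passed the threshold between stiff and soft IPNs, namely KRT17 (log2 difference 1.88, adjusted p = 0.00669), CDH1 (0.91, adjusted p = 0.0376) and ITGB4 (-1.45, adjusted p = 0.0292), beside 3.82% of all genes. Between stiff col and stiff IPN 3 of the 9 fell with the block in limma, namely KRT17 (-2.57, adjusted p = 0.00302), CDH1 (-1.63, adjusted p = 0.00781) and KRT14 (-1.52, adjusted p = 0.0328), beside 2.47% of all genes. None passed in either comparison without the block. Since CEACAM genes are also expressed by granulocytes, the leukocyte markers were read: PTPRC, ELANE and CEACAM3 were at 0 in every library. FCGR3B did not exceed 1 and CSF3R did not exceed 5, while CEACAM8 was at 1 to 7 and above 3 reads in most libraries. The sum of the 7 leukocyte markers was 17 to 36 in soft IPNs, 9 to 29 in stiff IPNs, 18 to 55 in soft col:rBM gels and 29 to 86 in stiff col gels, most of it MPO, which was higher in stiff col than in stiff IPN by 1.86 (limma adjusted p = 0.0447 with the block and 0.818 without). Of the fibroblast and endothelial markers, DCN was at 526 to 1217, PECAM1 at 2 to 32, PDGFRB at 9 or less and VWF at 2 or less. The part of other cell types in the results was not tested.

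CEACAM6 (ENSG00000086548, chr19:42254885-42276116, plus strand in hg19) was measured at normalized counts of 98 and 83 in stiff IPNs (replicates 1 and 2) and at 8 and 5 in soft IPNs. It was at 1 and 2 in soft col:rBM gels and at 0 and 2 in stiff col gels. The stiff IPN libraries thus lay far above the other 6, and all 4 collagen gel libraries were under the limit of 3 reads. The mean normalized count was 90.5 ± 10.6 (SD, n = 2) in stiff IPNs and 6.5 ± 2.12 (SD, n = 2) in soft IPNs, a 13.9-fold difference between means. On the scale of log2(normalized count + 1) the difference was 3.63 (SE 0.69), or 3.46 in trial 1 and 3.81 in trial 2. It ranked 13th from the top among 13369 genes tested, and 4th to 38th over the alternatives that kept the gene, and it was 3.75 without stiff IPN replicate 2. Against stiff col gels, stiff IPNs were at least 31.0-fold higher, with 3 reads taken as the upper limit for the stiff col gels, and the log2 difference of stiff col minus stiff IPN was -5.72 (SE 0.69), or -5.84 without stiff IPN replicate 2. That difference depends on the number added to each count, since stiff col was under the limit: it was -4.01 with 5 added in place of 1, -4.93 without stiff col replicate 1 and -6.51 without stiff col replicate 2.

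By the share of its sequence found in other transcripts, CEACAM6 is the member most open to confusion with other genes. Of the 50-base windows of its annotated transcripts, 7.22% (210 of 2907) also occur in transcripts of other genes. ENSG00000267881, CEACAM5, CEACAM1 and CEACAM3 shared the most windows, and any further genes were not listed. CEACAM3 was at 0 and CEACAM5 at 5 or less in every library, while CEACAM1 was at 142 and 50 in stiff IPNs. CEACAM6 also overlaps the antisense ENSG00000268833, a long noncoding RNA gene, over 14311 bases. The part that shared windows and this overlap play in the CEACAM6 value was not tested. Reads assigned to more than 1 place had been removed, which lowers the counts of genes that share sequence.

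CEACAM1 (ENSG00000079385, chr19:43011456-43065386, minus strand) was measured at 148 and 164 in soft IPNs and at 142 and 50 in stiff IPNs. It was at 215 and 129 in soft col:rBM gels and at 192 and 125 in stiff col gels. The low value belonged to stiff IPN replicate 2 alone, while stiff IPN replicate 1 was within the range of the other gels. The log2 difference of stiff IPN minus soft IPN was -0.88 (SE 0.52), made up of -0.06 in trial 1 and -1.69 in trial 2, and it was -0.13 without stiff IPN replicate 2. Stiff col minus stiff IPN gave 0.87 (SE 0.52), and 0.12 without that library. LIPE-AS1, an antisense gene on the plus strand, spans the whole of CEACAM1, and its own count was 7 to 20. The library kit does not mark strand, so reads of the 2 genes cannot be told apart where their exons meet.

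CEACAM19 (ENSG00000186567, chr19:45165545-45187631, plus strand), a less studied member of the family, was measured at 61 and 54 in soft IPNs and at 47 and 140 in stiff IPNs. In soft col:rBM gels it was at 52 and 68, and in stiff col gels at 40 and 56. Here too a single library stood apart, with stiff IPN replicate 2 above the other 7 and stiff IPN replicate 1 at the lower end. The log2 difference of stiff IPN minus soft IPN was 0.49 (SE 0.52), with -0.37 in trial 1 and 1.36 in trial 2, and its sign turned, to -0.28, when stiff IPN replicate 2 was left out. Stiff col minus stiff IPN was -0.77 (SE 0.52) with that library and 0.01 without it. CEACAM19 overlaps PVR over 3886 bases on the same strand, and PVR was at 1381 to 1959 in all libraries. CEACAM19 shares 1.91% of its 50-base windows with other genes, PVR among them. The antisense CEACAM16-AS1, a long noncoding RNA gene, spans the whole of CEACAM19, over 22087 bases.

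CEACAM5 (ENSG00000105388, chr19:42212504-42234353, plus strand), the carcinoembryonic antigen of clinical use, was at 1 and 5 in soft IPNs, 2 and 4 in stiff IPNs, 1 and 4 in soft col:rBM gels and 0 and 5 in stiff col gels. Replicate 2 exceeded 3 reads in each gel and replicate 1 in none, so no order of gels could be read from it. CEACAM7 (ENSG00000007306, chr19:42177231-42210895, minus strand) was at 0 in all 8 libraries, which allows up to 2.41 to 3.72 normalized counts per library. This limit covers counting error only. Neither gene reached the level required for testing, which was 10 normalized counts or more in no fewer than 2 libraries.

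IGFL1 (ENSG00000188293, chr19:46732999-46734500, plus strand), the ligand of IGFLR1, was measured at 30 and 322 in stiff IPNs. It was at 0 in both soft IPN libraries, at 0 and 2 in soft col:rBM gels and at 1 and 0 in stiff col gels. Both stiff IPN libraries lay above all others, but they differed from each other by more than 10 times. The mean was 176 ± 206 (SD, n = 2) in stiff IPNs, at least 51.9-fold higher than in soft IPNs with 3 reads as the upper limit there. Stiff IPN replicate 1 alone gave at least 8.85-fold. The log2 difference of stiff IPN minus soft IPN, 6.64 (SE 1.17), ranked first from the top among the genes tested, but its size depends on the 1 added to each count. It was 4.95 without stiff IPN replicate 2 and 4.42 with 5 added in place of 1, and in both cases S100A7 (5.12 and 4.98) ranked above it. Without soft IPN replicate 2, KLK5 (6.85) did. Stiff col gels were at least 60.3-fold lower than stiff IPNs, or at least 10.3-fold lower by stiff IPN replicate 1 alone.

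IGFL2 (ENSG00000204866, chr19:46646363-46664555, plus strand) was measured at 14 and 34 in soft IPNs and at 70 and 96 in stiff IPNs. It was at 24 and 31 in soft col:rBM gels and at 28 and 30 in stiff col gels. The stiff IPN libraries did not overlap with any other library, and the remaining 6 overlapped among themselves. The stiff IPN mean of 83 ± 18.4 (SD, n = 2) was 3.46-fold the soft IPN mean of 24 ± 14.1 (SD, n = 2). The log2 difference was 1.86 (SE 0.48), with 2.24 in trial 1 and 1.47 in trial 2, and it was 1.63 without stiff IPN replicate 2. Leaving out a soft IPN library moved it more, to 1.25 without replicate 1 and 2.47 without replicate 2. Stiff col minus stiff IPN was -1.47 (SE 0.48).

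IGFL3 (ENSG00000188624, chr19:46623324-46627945, minus strand) was measured at 2 and 6 in soft IPNs, 6 and 33 in stiff IPNs, 2 and 1 in soft col:rBM gels and 0 and 3 in stiff col gels. Stiff IPN replicate 2 was the only library above 10, so the gene was not tested, and stiff IPN replicate 1 was equal to soft IPN replicate 2. IGFL2 and IGFL3 both lie inside the span of ENSG00000267922, a long noncoding RNA on the plus strand, and IGFL1 overlaps the antisense ENSG00000269745 over 647 bases. No 50-base window of IGFL1, IGFL2 or IGFL3 occurred in a transcript of another gene.

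**Figure D1:**
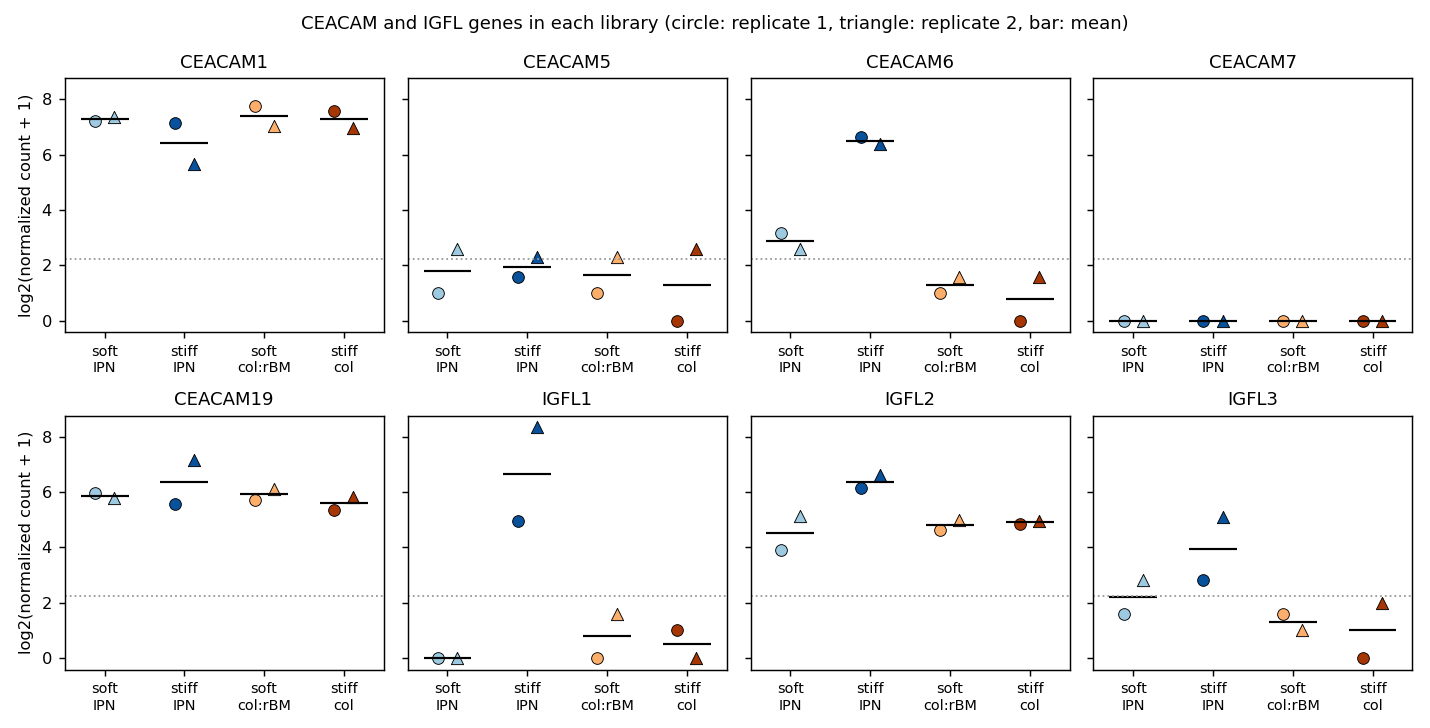
Log2(normalized count + 1) of the 8 genes in each of the 8 libraries, by gel, with each point 1 library, the bar the mean of 2 and the dotted line the highest value that 3 reads were worth in any library (3.72 normalized counts). CEACAM6 (normalized counts of 98 and 83) and IGFL2 (70 and 96) were highest in both stiff IPN libraries, IGFL1 reached 30 and 322 there, and CEACAM7 was at 0 throughout.

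Per kilobase of exon, which allows genes to be compared, IGFL1 had the highest mean level of the 8 in stiff IPNs, with 225.93 normalized counts per kb, followed by IGFL2 (34.16), CEACAM6 (30.62), IGFL3 (28.68), CEACAM19 (18.08), CEACAM1 (17.37) and CEACAM5 (0.75). In this order the libraries of each gene overlapped with those of the next, except between CEACAM1 and CEACAM5. The order rests on stiff IPN replicate 2, since in replicate 1 alone it was IGFL1 (38.51), CEACAM6 (33.15), IGFL2 (28.81), CEACAM1 (25.69), CEACAM19 (9.09), IGFL3 (8.82) and CEACAM5 (0.5). In soft IPNs the order was CEACAM1 (28.23), CEACAM19 (11.12), IGFL2 (9.88), IGFL3 (5.88), CEACAM6 (2.2) and CEACAM5 (0.75), with IGFL1 at 0. Here CEACAM19, IGFL2 and IGFL3 overlapped each with the next, and the other neighbors in the order did not.

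Summed over the 5 CEACAM genes, the normalized count was 188 to 289 in all 8 libraries, but the genes that made it up differed. CEACAM6 contributed 33.9% and 30.0% in stiff IPNs and at most 3.67% in any other library. CEACAM1 contributed 63.5% to 82.8% outside stiff IPNs, 49.1% in stiff IPN replicate 1 and 18.1% in stiff IPN replicate 2. CEACAM19 contributed 50.5% in that last library and 16.3% to 33.5% elsewhere. The IGFL sum was 106 and 451 in stiff IPNs and 16 to 40 in the other gels, where IGFL2 made up 85.0% to 96.6% of it. In stiff IPNs IGFL2 made up 66.0% and 21.3%, and IGFL1 28.3% and 71.4%. The bulk libraries do not show whether fewer cells carried a transcript or each cell carried less of it.

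**Figure D2:**
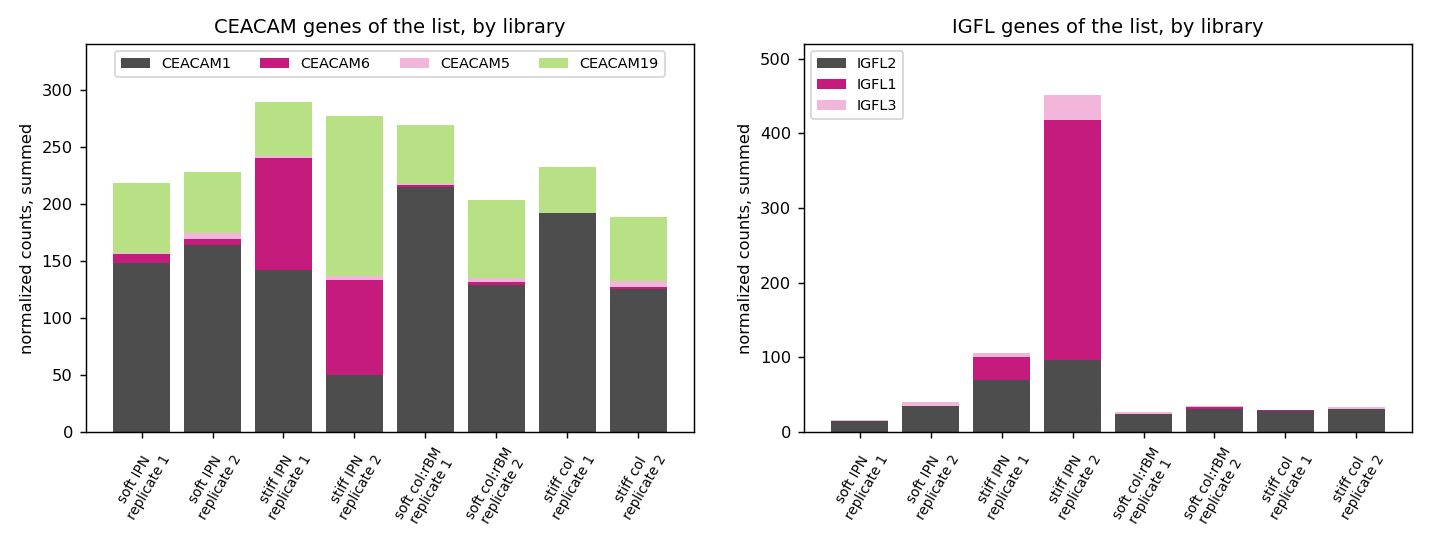
Stacked normalized counts of the CEACAM genes (sums 188 to 289) and the IGFL genes (sums 16 to 451) in each library. CEACAM6 made up 33.9% and 30.0% of its family in the 2 stiff IPN libraries and at most 3.67% elsewhere.

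Of the 8 genes, 5 could be tested, namely CEACAM1, CEACAM6, CEACAM19, IGFL1 and IGFL2. CEACAM6 and IGFL1 passed the filter through the stiff IPN libraries alone. In limma without a block for the trial, no gene of the 13369 was called at an adjusted p of 0.05 in any of the 4 comparisons (0.00%), and 1245 (9.31%) had an unadjusted p under 0.05 between stiff and soft IPNs. Adding a block for the trial gave 511 called genes (3.82%) between stiff and soft IPNs, among them CEACAM6, IGFL1 and IGFL2, and 330 (2.47%) between stiff col and stiff IPN, among them CEACAM6 and IGFL1. These 2 comparisons share the stiff IPN libraries, and the genes were listed for them, so the counts are given for reference only. The study itself called genes between soft and stiff IPNs with DESeq2, a different test, at an FDR under 0.05. It listed CEACAM6 and IGFL1 as higher in stiff IPNs, with smaller fold changes than here, and S100A7 as the most upregulated. Of the 5 genes, 4 were higher and 1 lower in stiff than in soft IPNs, with a median log2 difference of 1.86 against -0.01 over all genes tested. For stiff col minus stiff IPN, 1 was higher and 4 lower, with a median of -1.47 against 0.0. The libraries of the compared gels did not overlap for CEACAM6, IGFL1, IGFL2 (higher) and CEACAM1 (lower) between stiff and soft IPNs, as was the case for 41.9% of all genes tested. Between stiff col and stiff IPN the libraries of CEACAM6, IGFL1 and IGFL2 did not overlap, as for 30.9% of all genes.

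**Figure D3:**
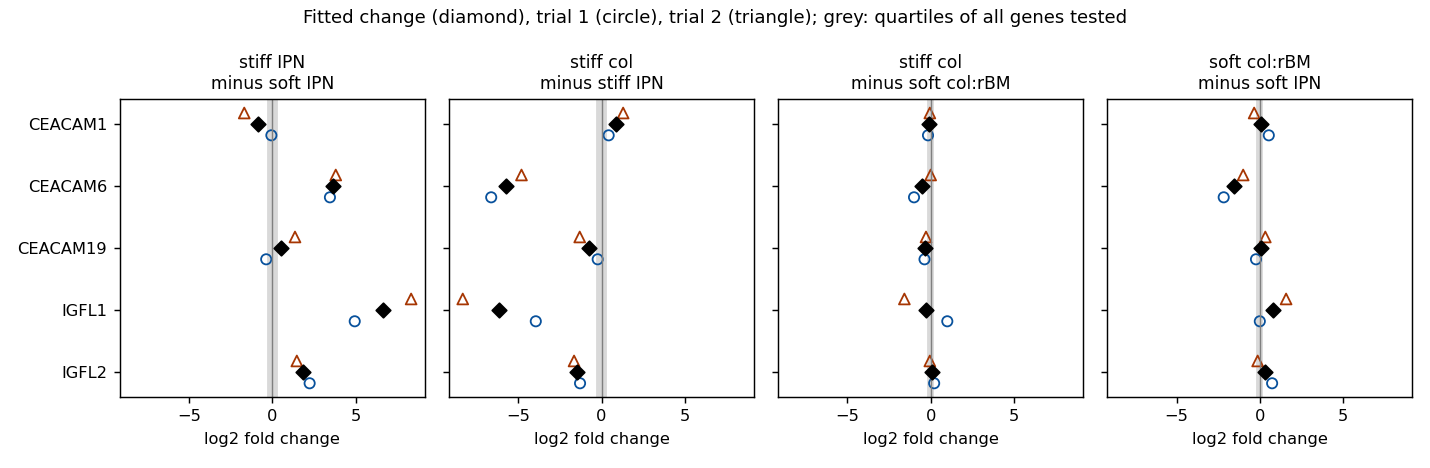
Log2 fold changes of the 5 tested genes in the 4 comparisons of gels, on the log2(normalized count + 1) scale, with the fitted value (diamond), each trial (circle and triangle) and the quartiles of all genes tested (grey band). IGFL1 (6.64) and CEACAM6 (3.63) lay farthest from 0 for stiff IPN minus soft IPN, and the fitted values for stiff col minus soft col:rBM lay between -0.50 and 0.08. CEACAM6 and IGFL1 were at or under 3 reads in both of those gels, so their points there are not read as changes.

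The remaining comparisons were not used to choose the genes, but each shares soft IPN or stiff col libraries with a comparison that was. The tests in them are thus not independent of the choice. Between stiff col and soft col:rBM gels none of the 5 passed in limma, where all adjusted p were 1 with or without the block. IGFL2, at 28 and 30 against 24 and 31, differed by 0.08 (95% interval -1.04 to 1.21). CEACAM1 differed by -0.10 (95% interval -1.32 to 1.11) and CEACAM19 by -0.32 (95% interval -1.55 to 0.9). With the trial as a block the intervals were -0.75 to 0.92 (IGFL2), -0.91 to 0.71 (CEACAM1) and -1.25 to 0.6 (CEACAM19). CEACAM6 and IGFL1 were at or under 3 reads in both gels, so their differences are not read as changes. No gene of the 13369 was called with or without the block (0.00%), and 140 (1.05%) had an unadjusted p under 0.05.

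Between soft col:rBM gels and soft IPNs, CEACAM6 was at 1 and 2 against 8 and 5, and the libraries did not overlap, as for 20.7% of all genes tested. With 3 reads as their upper limit, soft col:rBM gels were 1.75-fold lower, or 2.15-fold and 1.34-fold by soft IPN replicates 1 and 2 alone. Counts this low set no firm bound. CEACAM6 entered this test only because it passed the filter in stiff IPNs. The log2 difference was -1.58 (95% interval -3.19 to 0.02, limma adjusted p = 1). With the trial as a block the interval was -3.05 to -0.12 and the adjusted p 0.991 in limma, so the difference did not pass. Over all alternatives the adjusted p of this difference ranged from 0.446 to 1. CEACAM1 (0.10, 95% interval -1.12 to 1.31), CEACAM19 (0.05, 95% interval -1.18 to 1.28) and IGFL2 (0.30, 95% interval -0.82 to 1.43) did not pass either. IGFL1 was at or under the limit in both gels. Across all genes the block called 3 (0.0224%), PGBD5, POSTN and SAA1, and none without it (0.00%), where 190 (1.42%) had an unadjusted p under 0.05. An exact permutation test of 2 libraries against 2 cannot give a p below 0.333.

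The other family members were mostly silent. Of 17 further CEACAM and pregnancy-specific glycoprotein (PSG) genes, the latter a branch of the CEACAM family made by the placenta, none reached the level for testing and 9 were at 0 in every library. PSG4 was at 28 in stiff IPN replicate 2 and at 9 or less elsewhere, and CEACAM8 was at 1 to 7 over all libraries. IGFL4 was at 0 in all libraries. IGFLR1, the receptor of IGFL1, was at 9 and 10 in stiff IPNs (replicates 1 and 2), 9 and 19 in soft IPNs, 6 and 17 in soft col:rBM gels and 17 and 23 in stiff col gels. The receptor was thus detected in every gel, and its log2 difference of -0.43 (SE 0.62) between stiff and soft IPNs did not pass the threshold in limma (adjusted p = 0.837, and 0.602 with the block).

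Genes whose products act with CEACAM1 were tested from a list of 10, including the phosphatases PTPN6 and PTPN11, the kinase SRC, filamin A, beta-catenin and EGFR. Of these, 9 were tested and none was called in any comparison, with or without the block. In stiff against soft IPNs 2 were higher and 7 lower, with a median log2 difference of -0.33, and EGFR, a growth factor receptor, had the largest at -0.83 (SE 0.35, limma adjusted p = 0.531, and 0.167 with the block). The 6 genes for galectin-3, a CEACAM ligand, and for the GPI transamidase, the enzyme complex that attaches the anchor of CEACAM6, were all tested and none was called. Their median was -0.33 between stiff and soft IPNs and 0.15 between stiff col and stiff IPN.

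Of 12 genes known from inflamed epidermis, where IGFL1 is also described, 9 were tested. All 9 were higher in stiff than in soft IPNs, with a median of 2.03 against -0.01 over all genes, and 7 of them rose with the trial as a block, beside 1.69% of all genes called higher. None passed without it. The antimicrobial protein genes S100A7 (5.40) and LCN2 (3.83) and the elastase inhibitor gene PI3 (3.59) had the largest log2 differences, with limma adjusted p with the block of 0.0312, 0.00669 and 0.0131, and without it of 0.41, 0.243 and 0.491. S100A7 was at 395 and 586 in stiff IPNs and at 9 and 12 in soft IPNs. In stiff col against stiff IPN 0 were higher and 9 lower, with a median of -2.55, and 7 fell with the block, beside 1.47% of all genes called lower. None of the 9 was called in the other 2 comparisons. This list and the 8 genes were chosen with earlier results of these data known, so their shared direction is a description.

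Most genes next to the members were silent in these cells. The 3 genes on each side of each member gave 24 neighbors that were not members, of which 7 could be tested and 11 were at 0 in every library. None of the 7 was called in any comparison with or without the block, and their median log2 difference was 0.09 between stiff and soft IPNs. The annotated start of CEACAM6 lies 42.4 kb from that of CEACAM5 and 45.6 kb from that of CEACAM3, and neither of these genes was above 5 in any library. The neighbor with the largest difference was the pseudogene CEACAM22P, near CEACAM19, at 9 and 14 in stiff IPNs but 2 and 3 in soft IPNs, a log2 difference of 1.82 that did not pass.

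**Figure D4:**
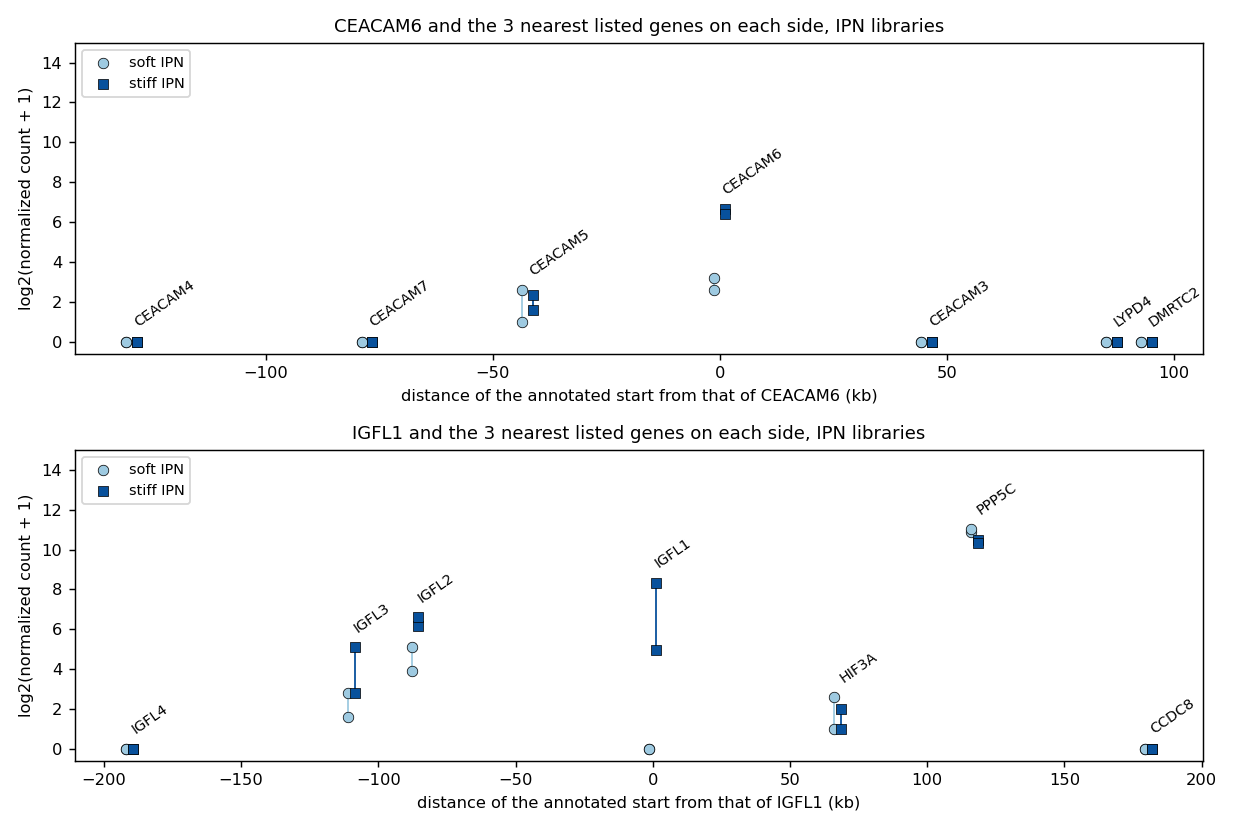
Log2(normalized count + 1) in the IPN libraries of CEACAM6 and IGFL1 and of the 3 listed genes on each side of each, against the distance of annotated starts in kb, with circles for soft and squares for stiff IPNs. All neighbors of CEACAM6 except CEACAM5 were at 0, while PPP5C, near IGFL1, was high in both gels.

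Genes with the pattern most like that of each member were found by the root mean square difference of centered log2(normalized count + 1) values over the 8 libraries, among 13368 genes. The order describes these libraries and was not tested, and the points share their gels and trials. For CEACAM6 the nearest was A2ML1, a protease inhibitor gene, with a difference of 0.55 log2 units and normalized counts of 112 and 157 in stiff IPNs and 2 to 16 elsewhere. Next came SLC6A14 (0.66), an amino acid transporter gene at 57 and 59 in stiff IPNs and 9 or less elsewhere, then CCDC64B (0.76), PI3 (0.78) and MUC16 (0.80), a mucin gene. These 5 genes were all highest in both stiff IPN libraries, as CEACAM6 was, over a CEACAM6 range of 6.63 log2 units.

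For IGFL1 the nearest were CCDC64B (1.14), ATP6V1C2 (1.16), IFI27 (1.16), POU2F3 (1.39) and CLDN1 (1.4). The IGFL1 range was 8.34 log2 units. CLDN1, which encodes a tight junction protein, was at 672 and 2761 in stiff IPNs and 166 or less elsewhere, so it too was higher in replicate 2. CEACAM6 was the 19th nearest to IGFL1, at 1.64. For IGFL2 the nearest were SAMD9L (0.29), LOC100134868 (0.31), LURAP1L (0.31) and S100P (0.32), over a range of 2.69.

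CEACAM1 and CEACAM19 had nearest genes that followed the single library standing apart. AXL, a receptor tyrosine kinase gene with a difference of 0.14 from CEACAM1, was at 393 in stiff IPN replicate 2 and 1022 to 1731 elsewhere, and PAQR8, CLMP, GNG4 and THBD likewise had their lowest value there. CASZ1, with a difference of 0.13 from CEACAM19, was at 280 in stiff IPN replicate 2 and 78 to 131 elsewhere, and C1orf159, TREX1, KLF4 and ENTHD2 had their highest value there. The likeness was not recomputed without that library. CEACAM1 and its 5 nearest genes were also lower in replicate 2 than in replicate 1 of both collagen gels.

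**Figure D5:**
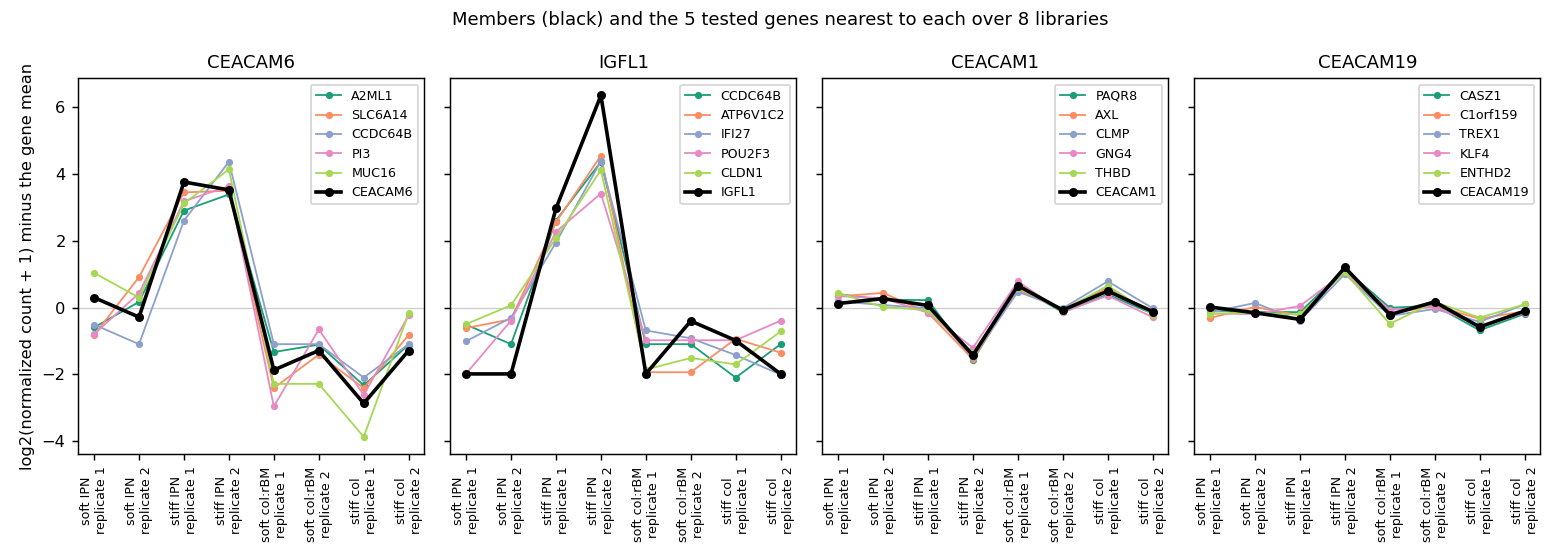
Centered log2(normalized count + 1) values over the 8 libraries for CEACAM6, IGFL1, CEACAM1 and CEACAM19 (black) and the 5 genes nearest to each (colors). The CEACAM6 and IGFL1 patterns were high in both stiff IPN libraries, and those of CEACAM1 and CEACAM19 departed in stiff IPN replicate 2.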

How the data were processed

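RNA-seq was measured in MCF10A cells after 7 days in 4 hydrogels, with 2 libraries per gel. Per the labels and the methods, the authors prepared unstranded TruSeq libraries, trimmed reads with Trim Galore 0.3.3, aligned them to hg19 (Bowtie2 in the methods, TopHat2 2.0.13 in the processing notes), removed low quality and multimapped reads with SAMtools 1.1, counted genes with HTSeq and used DESeq2 in R 3.2.0. The gene annotation used for counting is not given in the sources used here. The deposited signal is a normalized count, for which the authors scaled the read counts of each library by a single factor and rounded the result. The factors, and from them the reads per library, were worked out from the recurring gaps and doublings of whole numbers. The reads carry no molecular identifiers and are not independent molecules, so limits of detection cover counting error only.

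The 13369 genes that reached 10 normalized counts in 2 or more libraries were tested on the log2(normalized count + 1) scale. The fit in limma 3.58.1, run in R 4.3.3 with statmod 1.5.0, had a mean for each gel, a variance trend and robust moderation, and Benjamini-Hochberg adjustment over all genes tested. The threshold was 0.05. A fold change on this scale understates the change of low genes. The fit was tested on simulated data. P-values measure only the spread between these libraries. Whether replicate numbers pair the libraries was checked by correlating, across genes, the differences between replicate 2 and replicate 1 in pairs of gels. Over the 6 pairs of gels the correlations were 0.28 to 0.40 in those with stiff IPN, lowest with soft IPN, and 0.65 to 0.82 in the others. The numbers were taken to mark a shared trial, least clearly for stiff IPN, where the block changed the calls of members. The fit with the trial as a block is given where it changes a call.

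Positions came from GENCODE 44 lifted to hg19, in which 21538 symbols matched directly and 1460 by an older symbol, with 2371 unmatched. As many as 28 symbols had become dates and were not assigned. Promoters came from RefSeq. Python 3.11.15, numpy 2.4.6, pandas 2.3.3 and matplotlib 3.10.9 were used. The members and gene lists (other CEACAM and PSG genes, IGFL4 and IGFLR1, CEACAM1 partners, galectin and GPI transamidase genes, inflamed epidermis genes, positional neighbors and cell markers) were chosen with earlier results of these data known. Genes named were the members, list genes that passed (at most 3 per list and comparison, by size), defining list genes at 0, and the 5 genes nearest in pattern to each member tested, of which 1 is not reported here. Other genes are named where a count of 5 or fewer was given, chosen after their values were seen. Alternatives were the block, rescaling by median of ratios and TMM, pseudocounts of 0.5 and 5, other filters, the 2 compared gels alone, each trial alone and leaving out each library.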

Additional observations from a re-analysis of the deposited data

How the results depend on the processing

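With the replicate block, genes called rose from 0 to 511 between stiff and soft IPNs (3 members) and to 330 between stiff col and stiff IPN (2 members). They rose to 3 between soft col:rBM and soft IPN, and the block changed no other call of a member. The genes were listed for the first 2 of these comparisons, so calls of members there are for reference only under every setting. The fit of the 2 IPN gels alone called 2 genes, LCN2 and S100A7. A pseudocount of 5 called 4 genes between stiff col and stiff IPN, CEACAM6 (1 member) among them with A2ML1, LCN2 and S100A7. Leaving out 1 library gave 0 to 5 genes there, the 5 without stiff col replicate 2 (KLK7, MAL2, MUC16, S100A7 and SPRR1B). The block with stiff IPN replicate 2 left out, chosen after seeing the data, called 1092 genes (3 members) between stiff and soft IPNs and 725 (1 member, CEACAM6, and not IGFL1) for stiff col against stiff IPN. It called 30 genes between the collagen gels and 21 between the soft gels, none of them members. Its lone stiff IPN library is assumed to vary like the other gels. The causes were not tested.

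Leaving out 1 library turned the sign of small differences that were not called. Between stiff col and soft col:rBM the log2 differences ranged from -0.47 to 0.26 (CEACAM1), -1.29 to 0.29 (CEACAM6), -1.08 to 0.5 (IGFL1) and -0.09 to 0.26 (IGFL2). The CEACAM6 and IGFL1 values there lie between gels at or under 3 reads. Between soft col:rBM and soft IPN they ranged from -0.27 to 0.46 (CEACAM1), -0.14 to 0.24 (CEACAM19) and -0.31 to 0.92 (IGFL2). Of the other values for single genes under an alternative, 336 stayed within the spread or on their side of the threshold. Another 26 moved, mainly IGFL1 and CEACAM6 with a pseudocount of 5 or in 1 trial alone. In the comparisons used to choose the genes, a turn of sign within the spread counted as staying. Without stiff IPN replicate 2, CEACAM19 turned from 0.49 to -0.28 (stiff IPN minus soft IPN) and from -0.77 to 0.01 (stiff col minus stiff IPN). Depth limits CEACAM5 and IGFL3, near 3 reads in most libraries, and CEACAM7, at 0 in all.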
